A study of Mus musculus with 6 samples.

Results

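The 34 genes described here encode enzymes and regulators of sterol and fatty acid synthesis under the sterol regulatory element-binding proteins (SREBPs). They were chosen by gene symbol as a pathway, with earlier results of these data known. All 34 were found among the 24054 genes of the count table and passed the filter on low counts. The sterol branch holds 25 of them, 20 enzymes and 5 regulators or carriers, and the fatty acid branch holds 9. They were followed in 6 RNA-seq libraries of bone marrow-derived macrophages, which were grown from mouse marrow over 7 days with L929-conditioned medium (L929 is a mouse fibroblast line and a usual source of macrophage growth factor). The groups were Kindlin3-integrin mutant macrophages with oxidised low-density lipoprotein (oxLDL, 50 µg/ml for 24 hours; 2 libraries), wild-type C57BL/6 (WT) macrophages with oxLDL (1 library), untreated mutant macrophages (2 libraries) and untreated WT macrophages (1 library). Both genotypes are on the C57BL/6 background, and the labels name no further allele or agent. Kindlin-3 is the kindlin of blood cells and binds the tails of integrins, the receptors that anchor cells. The age and sex of the mice, the exact kindlin allele and any pooling of animals are not given in the sources used here. The series set out to compare how the 2 genotypes respond to oxLDL, a form of lipoprotein that macrophages of the atherosclerotic artery wall take up as a cholesterol load.

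Cells make cholesterol from acetyl-CoA through the mevalonate pathway, which leads to farnesyl diphosphate, then squalene, then a series of sterols. SREBP-2 mainly drives the genes of this pathway and SREBP-1 those of fatty acid synthesis; both are held in the endoplasmic reticulum by SCAP and INSIG proteins when sterols are plentiful and are released to the Golgi and cut when sterols are scarce. Macrophages that take up lipoproteins receive cholesterol from outside, and oxysterols formed in them activate the liver X receptors (LXRs), which drive cholesterol export and the gene for SREBP-1c.

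The libraries held between 11281692 and 24273551 counts assigned to genes. Levels are given as CPM, read counts scaled by library size and by a trimmed-mean (TMM) factor, and errors of means are standard deviations (SD). A gene was called changed when edgeR's quasi-likelihood test over 12689 genes gave a Benjamini-Hochberg adjusted p under 0.05. The labels do not say whether replicates came from different animals or cultures; the p-values therefore cover the spread between these libraries alone, which may be technical, and each single WT library is assumed to vary like the mutant pairs. Treatment separated the libraries along the first principal component, which held 71.3% of the variance. Fermt3, the kindlin-3 gene, read 146, 153 and 188 CPM in mutant oxLDL 1, mutant oxLDL 2 and WT oxLDL, and 241, 249 and 403 CPM in mutant untreated 1, mutant untreated 2 and WT untreated. Its transcript was thus below WT in both mutant pairs, and the difference passed in untreated cells (log2 fold change -0.72 ± 0.11 SE, adjusted p = 0.0264 by edgeR), though not without mutant untreated 1 (adjusted p = 0.0916) or 2 (0.0579). The Fermt3 difference between genotypes did not pass with oxLDL (-0.33 ± 0.11 SE) or across treatments (-0.53 ± 0.11 SE, adjusted p = 0.0517 by edgeR). The macrophage marker list was high in every library, with summed levels of 10076 to 19459 CPM with oxLDL and 18337 to 29686 CPM untreated. Of its 8 genes, 2 rose with oxLDL, Cd68 and Mertk, and 4 fell, Emr1 (the F4/80 antigen), Fcgr1, Cd14 and Csf1r, against 19.1% of all genes tested called higher and 21.4% lower. Dendritic cell, fibroblast, lymphocyte and erythroid lists stayed between 0.0708 and 5.88 summed CPM in all 6 libraries. Summed pancreas markers stood at 169 and 134 CPM in oxLDL-treated mutant cells and 0 CPM in oxLDL-treated WT cells. Untreated mutant cells had 0 and 0.0708 CPM of them and untreated WT cells 228 CPM. Of these 10 genes, 0 passed for oxLDL across genotypes or for genotype across treatments. Among mutant libraries, however, all 10 rose after oxLDL. The mutant lay below WT for all 10 in untreated cells and above WT for 8 with oxLDL. All 10 also passed, with a positive sign, for the difference of the oxLDL responses between genotypes. These calls count in the shares of all genes given below for the same comparisons. The part of these markers in the results below was not tested.

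The sterol genes are known to carry short SREBP-binding elements near their start sites, usually beside boxes for the factors NF-Y and Sp1. RefSeq promoter windows, 250 bases before to 50 bases after a start site (build GRCm38.p6), were found for 27 of the 34 genes, in 33 windows. Fdft1, Fdps, Sqle, Stard4, Scd1, Scd2 and Fads1 had no entry. The 250 bases before the start are printed for 6 genes, chosen because their responses to oxLDL span the range described below: Hmgcs1 (chr13:119690101-119690350, plus strand), Idi1 (chr13:8885356-8885605, plus), Cyp51 (chr5:4104698-4104947, minus) and Insig1 (chr5:28071162-28071411, plus) fell, Ggps1 (chr13:14063489-14063738, minus) rose, and Ebp (chrX:8193513-8193762, minus) did not pass. Each is written 5′ to 3′ on the gene's strand, and capitals mark matches, on either strand, to the sterol regulatory element TCACNCCAC, the E-box CACGTG and the NF-Y box CCAAT.
Hmgcs1: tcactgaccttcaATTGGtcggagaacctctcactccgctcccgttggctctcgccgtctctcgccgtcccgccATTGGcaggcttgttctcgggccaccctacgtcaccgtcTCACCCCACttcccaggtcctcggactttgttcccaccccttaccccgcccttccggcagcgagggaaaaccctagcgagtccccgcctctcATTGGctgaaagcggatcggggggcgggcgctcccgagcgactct
Idi1: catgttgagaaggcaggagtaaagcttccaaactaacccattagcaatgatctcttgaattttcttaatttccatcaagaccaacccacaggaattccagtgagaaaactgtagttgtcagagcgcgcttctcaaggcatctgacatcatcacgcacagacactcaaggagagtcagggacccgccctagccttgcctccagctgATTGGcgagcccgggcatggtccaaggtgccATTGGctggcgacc
Cyp51: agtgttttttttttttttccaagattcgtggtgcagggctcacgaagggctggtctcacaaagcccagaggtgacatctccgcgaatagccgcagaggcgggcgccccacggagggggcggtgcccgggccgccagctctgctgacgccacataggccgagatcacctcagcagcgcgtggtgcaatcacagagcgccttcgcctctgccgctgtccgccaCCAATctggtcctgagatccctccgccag
Insig1: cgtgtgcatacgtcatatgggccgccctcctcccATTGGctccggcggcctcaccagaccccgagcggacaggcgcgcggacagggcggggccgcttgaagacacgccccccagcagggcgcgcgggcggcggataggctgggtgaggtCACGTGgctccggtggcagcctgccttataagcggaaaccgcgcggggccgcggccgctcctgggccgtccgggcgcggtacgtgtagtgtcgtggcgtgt
Ggps1: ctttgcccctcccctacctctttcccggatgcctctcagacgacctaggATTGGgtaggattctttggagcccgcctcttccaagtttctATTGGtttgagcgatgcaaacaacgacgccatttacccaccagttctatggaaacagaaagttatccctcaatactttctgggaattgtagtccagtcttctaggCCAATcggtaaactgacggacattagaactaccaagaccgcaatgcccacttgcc
Ebp: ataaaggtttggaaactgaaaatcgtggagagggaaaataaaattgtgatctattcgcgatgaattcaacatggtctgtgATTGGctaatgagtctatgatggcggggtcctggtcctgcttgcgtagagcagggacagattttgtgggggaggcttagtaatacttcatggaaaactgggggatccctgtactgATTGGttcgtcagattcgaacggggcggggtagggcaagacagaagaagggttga

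TCACNCCAC matched in 1 of the 33 member windows (3.03%), that of Hmgcs1 at positions -137 to -129 from the start, against 1.24% of all 32851 windows of the table. CCAAT matched in 22 member windows (66.7%), against 37.4% of all windows. The Sp1 box GGGCGG, which is not capitalised above, matched in 25 member windows (75.8%), against 35.7% of all windows, and CACGTG matched in 6 (18.2%), against 7.15%. All motifs were searched on both strands, several windows belong to the same gene, and none of the 4 motifs contains another. CCAAT stood in the windows of genes of every kind of response: Hmgcs1, Idi1, Cyp51 and Insig1 among those that fell, Ggps1 and Acss2 among those that rose, and Ebp, which did not pass. A match is a description of letters and not of a bound factor. Only exact matches to these letters were counted, so a missing match does not show that a gene lacks such an element.

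With oxLDL, most sterol synthesis genes were lower in both genotypes, whereas the fatty acid genes divided. Across genotypes, 25 of the 34 genes fell, 5 rose and 4 did not pass, against a background of 40.5% of all tested genes called in either direction, 21.4% lower and 19.1% higher. Of the 20 sterol enzymes 18 fell, 1 rose (Ggps1) and 1 did not pass (Ebp), with a median log2 fold change of -1.33, against 0.01 over all genes tested. Of the 9 fatty acid genes 4 fell, 3 rose and 2 did not pass, with a median of -0.14. The sterol enzymes summed to 481 and 531 CPM in oxLDL-treated mutant cells and 469 CPM in oxLDL-treated WT cells. Untreated mutant cells had 1466 and 1266 CPM and untreated WT cells 1038 CPM. No oxLDL library reached the lowest untreated one, and the means were 494 ± 32.7 CPM with oxLDL and 1257 ± 214 CPM untreated (SD, n = 3 each). In 26 of the 34 genes all oxLDL libraries lay below all untreated ones, against 23.3% of all genes tested, and in 4 all lay above, against 24.5%. In bulk RNA, fewer cells of a type and less RNA per cell cannot be told apart, and the part that the lower macrophage markers named above play in these values was not tested.

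**Figure D1:**
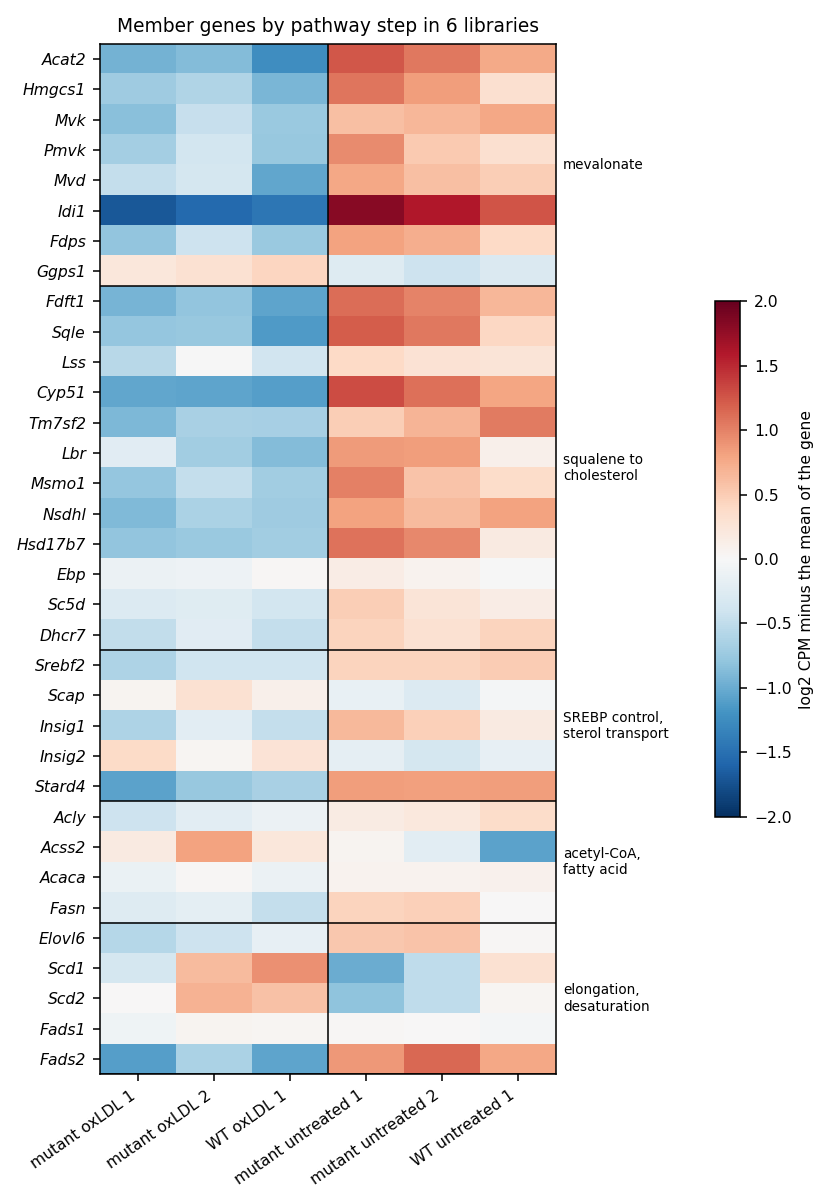
Heat map of the 34 genes (rows, ordered by pathway step) in the 6 libraries (columns, oxLDL left of untreated); colour is log2 CPM minus the gene's mean over the libraries. Most sterol rows are low in the 3 oxLDL columns and high in the 3 untreated columns, Ggps1 and Insig2 run the other way, and the rows of Ebp and Fads1 show little difference.

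The early mevalonate steps fell together, 7 of 8 genes, with the prenyl branch enzyme Ggps1 as the exception. Acat2, the cytosolic thiolase that joins acetyl-CoA units, had 9.13 and 9.56 CPM in oxLDL-treated mutant cells and 7.41 CPM in oxLDL-treated WT cells. In untreated cells it read 41.5 and 36.3 CPM in the mutant and 29.6 CPM in WT. It was 4.10-fold lower with oxLDL (log2 fold change -2.04 ± 0.10 SE, adjusted p = 0.000102 by edgeR), with the limit that 33.9% of its 75-base stretches also occur in other genes, mainly Acat3. Hmgcs1, HMG-CoA synthase, had 65.3, 70.0 and 56.7 CPM in mutant oxLDL 1, mutant oxLDL 2 and WT oxLDL, against 224, 189.9 and 133 CPM in mutant untreated 1, mutant untreated 2 and WT untreated. The untreated mutant libraries were the highest and every oxLDL library lay below the untreated WT one, a 2.80-fold lower level with oxLDL (-1.49 ± 0.12 SE, adjusted p = 0.000292). The kinases and the decarboxylase that turn mevalonate into isopentenyl diphosphate fell as well. Mvk was between 3.57 and 4.61 CPM with oxLDL and between 9.62 and 10.8 CPM untreated (-1.35 ± 0.17 SE, adjusted p = 0.0016 by edgeR). Pmvk stood at 6.90 to 9.02 CPM with oxLDL and 14.5 to 22.5 CPM untreated (-1.20 ± 0.17 SE, adjusted p = 0.00215), and Mvd at 8.12 to 13.0 CPM with oxLDL and 23.4 to 28.3 CPM untreated (-1.24 ± 0.13 SE, adjusted p = 0.000839). For these 3 genes, too, no oxLDL library overlapped an untreated one.

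Idi1, the isomerase that makes dimethylallyl diphosphate, had the largest fall of the 34 genes. It had 11.4 and 12.5 CPM in oxLDL-treated mutant cells and 13.5 CPM in oxLDL-treated WT cells. The untreated libraries read 130.0 and 111 CPM in the mutant and 87.3 CPM in WT. The oxLDL libraries lay close together while the untreated ones ranged widely, with means of 12.4 ± 1.07 CPM with oxLDL and 109 ± 21.4 CPM untreated (SD, n = 3 each), an 8.74-fold lower level with oxLDL (-3.13 ± 0.16 SE, adjusted p = 0.000105 by edgeR). Idi1 shares 16.7% of its 75-base stretches with other genes, mainly Gm13502. Fdps, which makes farnesyl diphosphate, stood at 26.0 to 33.6 CPM with oxLDL and 59.4 to 78.7 CPM untreated (-1.29 ± 0.12 SE, adjusted p = 0.000572), with 23.5% of its stretches shared with other genes. Ggps1 makes geranylgeranyl diphosphate, the lipid anchor of many small GTPases, and is a branch away from cholesterol. It had 34.8 and 37.1 CPM in oxLDL-treated mutant cells and 40.4 CPM in oxLDL-treated WT cells. Untreated, the mutant cells had 24.9 and 22.4 CPM and the WT cells 24.6 CPM. All oxLDL libraries lay above all untreated ones, a 1.56-fold higher level with oxLDL (0.64 ± 0.093 SE, adjusted p = 0.00255). Fdft1, squalene synthase, uses the same farnesyl diphosphate for the sterol branch and fell, so that the CPM ratio of Ggps1 to Fdft1 was 2.33 and 2.26 in mutant oxLDL and 2.94 in WT oxLDL, against 0.403 and 0.396 in untreated mutant and 0.544 in untreated WT.

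From squalene to cholesterol 11 of 12 genes fell. Fdft1 had 14.97 and 16.4 CPM in oxLDL-treated mutant cells and 13.7 CPM in oxLDL-treated WT cells. Untreated mutant cells had 61.8 and 56.5 CPM and untreated WT cells 45.1 CPM. It was 3.60-fold lower with oxLDL (-1.85 ± 0.10 SE, adjusted p = 0.000109 by edgeR), and 16.6% of its stretches lie antisense to other genes, mainly Ctsb, whose reads cannot be told apart because the strand setting of the counting is not given. Sqle, squalene epoxidase and a flux-controlling step, had 26.8 and 26.9 CPM in oxLDL-treated mutant cells and 20.8 CPM in oxLDL-treated WT cells. In untreated cells it read 106 and 95.0 CPM in the mutant and 60.8 CPM in WT. Every oxLDL library was below every untreated one, and the level was 3.45-fold lower with oxLDL (-1.79 ± 0.11 SE, adjusted p = 0.000147). Lss, lanosterol synthase, had a small fall. Its libraries read 19.2, 28.1 and 21.5 CPM in mutant oxLDL 1, mutant oxLDL 2 and WT oxLDL and 36.9, 34.2 and 33.8 CPM in mutant untreated 1, mutant untreated 2 and WT untreated (-0.61 ± 0.15 SE, adjusted p = 0.0195). All oxLDL libraries lay below all untreated ones, but the call was lost without WT oxLDL (adjusted p = 0.0599), mutant untreated 1 (0.0664), mutant untreated 2 (0.0601) or WT untreated (0.0585).

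Cyp51, the lanosterol 14-demethylase, had 34.6 and 34.4 CPM in oxLDL-treated mutant cells and 33.0 CPM in oxLDL-treated WT cells. The untreated libraries read 175 and 153 CPM in the mutant and 123 CPM in WT. The oxLDL libraries of both genotypes lay close together, with a mean of 34.01 ± 0.901 CPM against 150.4 ± 25.8 CPM untreated (SD, n = 3 each), a 4.39-fold lower level with oxLDL (-2.13 ± 0.11 SE, adjusted p = 0.000102 by edgeR). Tm7sf2 and Lbr both encode sterol 14-reductases. Tm7sf2 stood at 1.95 to 2.33 CPM with oxLDL and 5.12 to 7.47 CPM untreated (-1.47 ± 0.21 SE, adjusted p = 0.00241), highest in untreated WT, while Lbr stood at 13.2 to 20.4 CPM with oxLDL and 25.7 to 43.2 CPM untreated (-1.18 ± 0.15 SE, adjusted p = 0.00154), lowest of the untreated in WT. All 3 genes of the C4 demethylation complex fell. Msmo1, its oxidase, stood at 64.5 to 79.4 CPM with oxLDL and 143 to 223 CPM untreated (-1.31 ± 0.16 SE, adjusted p = 0.00134), and Nsdhl, its dehydrogenase, at 16.1 to 19.1 CPM with oxLDL and 45.9 to 52.0 CPM untreated (-1.49 ± 0.11 SE, adjusted p = 0.000233). Hsd17b7, its ketoreductase, had 10.5 and 10.8 CPM in oxLDL-treated mutant cells and 11.2 CPM in oxLDL-treated WT cells, against 38.3 and 35.3 CPM in untreated mutant cells and 20.4 CPM in untreated WT cells (-1.49 ± 0.20 SE, adjusted p = 0.00191). Among the last steps Ebp, the sterol isomerase, had 29.8 and 30.1 CPM in oxLDL-treated mutant cells and 32.7 CPM in oxLDL-treated WT cells, against 36.0 and 33.97 CPM in untreated mutant cells and 32.1 CPM in untreated WT cells (-0.14 ± 0.095 SE, adjusted p = 0.283), and its groups overlapped. Sc5d, the sterol C5-desaturase, was 1.51-fold lower with oxLDL (-0.60 ± 0.094 SE, adjusted p = 0.00342) and Dhcr7, which removes the last double bond on the route through 7-dehydrocholesterol, 1.73-fold lower (-0.79 ± 0.11 SE, adjusted p = 0.00239), both with all oxLDL libraries below all untreated ones.

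**Figure D2:**
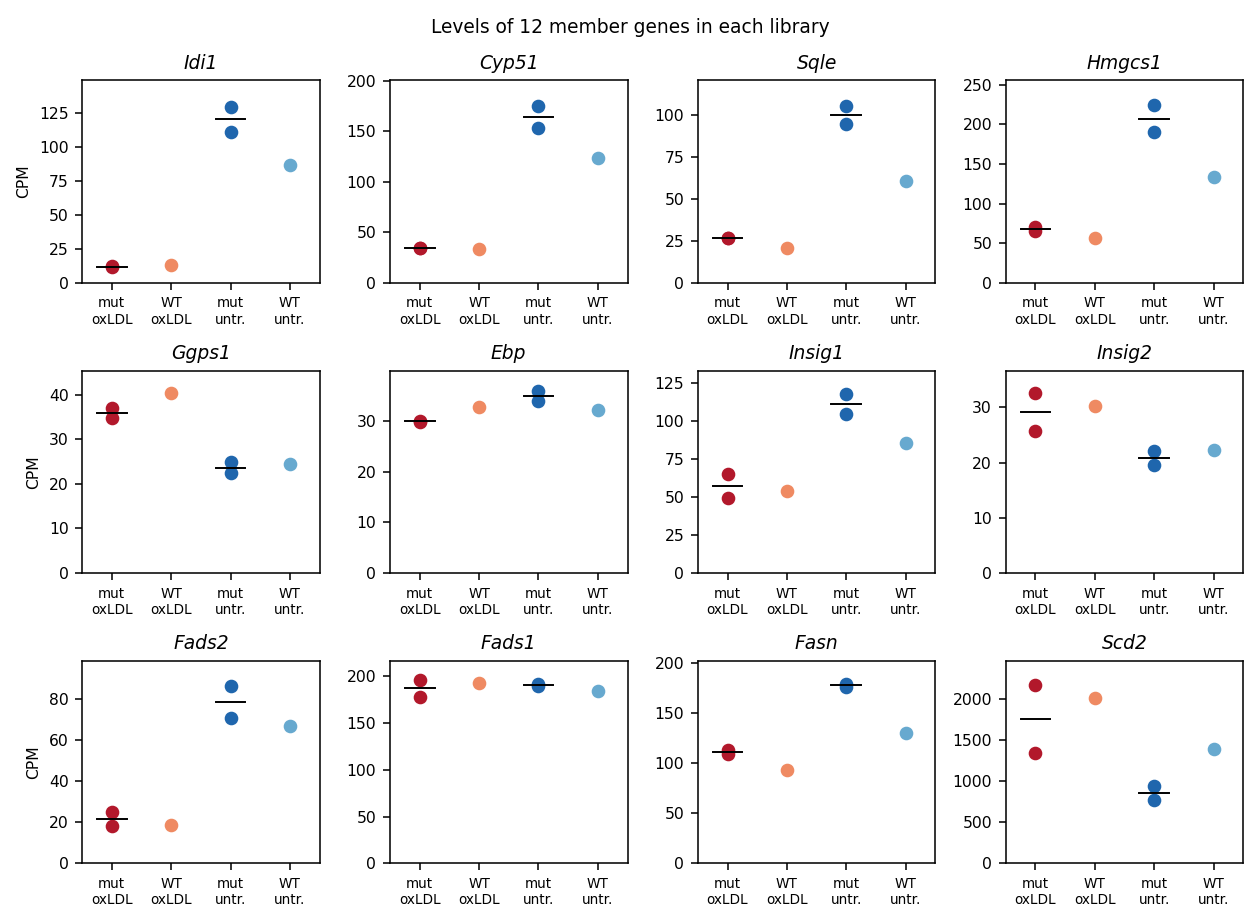
CPM (y axes, from 0) of 12 of the genes in each library, by group (mut, mutant; untr., untreated); each point is 1 library and the line is the mean of the 2 mutant libraries. The oxLDL points of Idi1 lie between 11.4 and 13.5 CPM and the untreated points between 87.3 and 130.0 CPM, whereas the groups of Scd2 overlap.

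Of the 5 regulators and carriers, 3 fell, 1 rose and 1 did not pass. Srebf2, which encodes SREBP-2 and is itself an SREBP target, had 72.3 and 84.5 CPM in oxLDL-treated mutant cells and 84.3 CPM in oxLDL-treated WT cells. Untreated, the mutant cells had 151 and 151 CPM and the WT cells 158 CPM. The groups were far apart, a 1.91-fold lower level with oxLDL (-0.93 ± 0.087 SE, adjusted p = 0.000526 by edgeR). The 2 genes for the INSIG retention proteins moved in opposite directions. Insig1, an SREBP target, had 49.4 and 65.1 CPM in oxLDL-treated mutant cells and 53.9 CPM in oxLDL-treated WT cells, against 118 and 105 CPM in untreated mutant cells and 85.7 CPM in untreated WT cells (-0.86 ± 0.13 SE, adjusted p = 0.00336). Insig2 had 32.6 and 25.8 CPM in oxLDL-treated mutant cells and 30.2 CPM in oxLDL-treated WT cells, against 22.1 and 19.5 CPM in untreated mutant cells and 22.4 CPM in untreated WT cells (0.47 ± 0.12 SE, adjusted p = 0.0237). The Insig2 libraries did not overlap either, but the call was lost without mutant oxLDL 1 (adjusted p = 0.0817), WT oxLDL (0.0578), mutant untreated 1 (0.0518), mutant untreated 2 (0.0951) or WT untreated (0.0613). The CPM ratio of Insig2 to Insig1 was 0.661 and 0.395 in mutant oxLDL and 0.560 in WT oxLDL, against 0.188 and 0.187 in untreated mutant and 0.261 in untreated WT. Scap, the escort of SREBPs, had 47.6 to 56.7 CPM with oxLDL and 38.3 to 44.8 CPM untreated; all oxLDL libraries lay above all untreated ones, but the test did not pass (0.30 ± 0.11 SE, adjusted p = 0.0694). Stard4, a carrier that moves cholesterol to the endoplasmic reticulum, had 13.5 and 16.8 CPM in oxLDL-treated mutant cells and 18.1 CPM in oxLDL-treated WT cells. Untreated mutant cells had 50.6 and 50.0 CPM and untreated WT cells 50.7 CPM. The untreated libraries of both genotypes were nearly equal, and the level was 3.14-fold lower with oxLDL (-1.65 ± 0.12 SE, adjusted p = 0.000232).

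Among the genes of acetyl-CoA supply and fatty acid synthesis, Acly and Fasn fell, Acss2 rose and Acaca did not pass. Acly, ATP-citrate lyase, had 169 and 195 CPM in oxLDL-treated mutant cells and 208 CPM in oxLDL-treated WT cells. In untreated cells it read 253 and 262 CPM in the mutant and 291 CPM in WT. Within each treatment WT was the highest, and with oxLDL the level was 1.41-fold lower (-0.50 ± 0.087 SE, adjusted p = 0.00511 by edgeR). Fasn, fatty acid synthase, had 109 and 114 CPM in oxLDL-treated mutant cells and 93.7 CPM in oxLDL-treated WT cells. The untreated libraries read 176 and 179.7 CPM in the mutant and 131 CPM in WT. No oxLDL library reached an untreated one, a 1.53-fold lower level with oxLDL (-0.61 ± 0.080 SE, adjusted p = 0.00181). Acaca, acetyl-CoA carboxylase, had 76.7 to 85.2 CPM with oxLDL and 87.7 to 88.5 CPM untreated. Its libraries did not overlap, yet the test did not pass (-0.14 ± 0.081 SE, adjusted p = 0.213), and 26.8% of its stretches are shared with other genes, mainly Gm5182. Acss2, which makes acetyl-CoA from acetate, had 14.8 and 22.8 CPM in oxLDL-treated mutant cells and 15.2 CPM in oxLDL-treated WT cells. Untreated, the mutant cells had 13.6 and 11.3 CPM and the WT cells 6.19 CPM. It was 1.77-fold higher with oxLDL (0.82 ± 0.23 SE, adjusted p = 0.0291), with no overlap, and the call was lost without mutant oxLDL 2 (adjusted p = 0.0914), WT oxLDL (0.107), mutant untreated 2 (0.0998) or WT untreated (0.103).

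Elongation and desaturation genes went in both directions. Fads2, the delta-6 desaturase of polyunsaturated fatty acids, had 18.05 and 25.2 CPM in oxLDL-treated mutant cells and 18.7 CPM in oxLDL-treated WT cells. Untreated mutant cells had 70.9 and 86.1 CPM and untreated WT cells 66.6 CPM. It had the largest fall of the fatty acid genes, 3.61-fold lower with oxLDL (-1.85 ± 0.15 SE, adjusted p = 0.000326 by edgeR). Fads1, the delta-5 desaturase that acts after it, had 178 and 196 CPM in oxLDL-treated mutant cells and 193 CPM in oxLDL-treated WT cells. In untreated cells it read 192 and 189.7 CPM in the mutant and 184 CPM in WT. Its groups overlapped (0.00 ± 0.080 SE, adjusted p = 0.978), with a sign that changed with the scaling. The CPM ratio of Fads2 to Fads1 was 0.101 and 0.129 in mutant oxLDL and 0.0972 in WT oxLDL, against 0.369 and 0.454 in untreated mutant and 0.363 in untreated WT. Elovl6, which lengthens palmitate, had 4.62 and 5.15 CPM in oxLDL-treated mutant cells and 6.07 CPM in oxLDL-treated WT cells, against 9.97 and 10.2 CPM in untreated mutant cells and 6.96 CPM in untreated WT cells (-0.76 ± 0.21 SE, adjusted p = 0.0298). The WT libraries were close to each other and the mutant ones far apart, and the call was lost without mutant oxLDL 1 (adjusted p = 0.104), mutant oxLDL 2 (0.0858), mutant untreated 1 (0.0911) or mutant untreated 2 (0.106).

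The stearoyl-CoA desaturases, which make monounsaturated fatty acids and are known targets of both SREBP-1 and LXR, rose. Scd2 had 1345 and 2166 CPM in oxLDL-treated mutant cells and 2011 CPM in oxLDL-treated WT cells. The untreated libraries read 767 and 941 CPM in the mutant and 1387 CPM in WT. The highest untreated library, that of WT, lay above the lower mutant oxLDL library, and the level was 1.83-fold higher with oxLDL (0.87 ± 0.22 SE, adjusted p = 0.0202 by edgeR). Scd1 had 74.2 and 146 CPM in oxLDL-treated mutant cells and 178 CPM in oxLDL-treated WT cells. Untreated, the mutant cells had 47.5 and 66.3 CPM and the WT cells 116 CPM. It was 1.78-fold higher with oxLDL (0.83 ± 0.27 SE, adjusted p = 0.0455), also with overlap, and its call was lost without mutant oxLDL 2 (log2 fold change 0.49, adjusted p = 0.0676), WT oxLDL (0.0737), mutant untreated 1 (0.136), mutant untreated 2 (0.103) or WT untreated (0.0733). For Scd2 the call was lost without mutant untreated 1 (adjusted p = 0.0722) or 2 (0.0791). Scd2 alone made up 50.1% and 58.0% of the summed CPM of the 34 genes in mutant oxLDL and 57.4% in WT oxLDL, against 22.1% and 27.2% in untreated mutant and 37.7% in untreated WT. The genes together summed to 2686 and 3734 CPM in oxLDL-treated mutant cells and 3506 CPM in oxLDL-treated WT cells, against 3468 and 3464 CPM in untreated mutant cells and 3676 CPM in untreated WT cells, so the total overlapped between treatments. Without Scd2 it did not: 1341 and 1568 CPM in oxLDL-treated mutant cells and 1495 CPM in oxLDL-treated WT cells, against 2700.2 and 2523 CPM in untreated mutant cells and 2289 CPM in untreated WT cells.

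**Figure D3:**
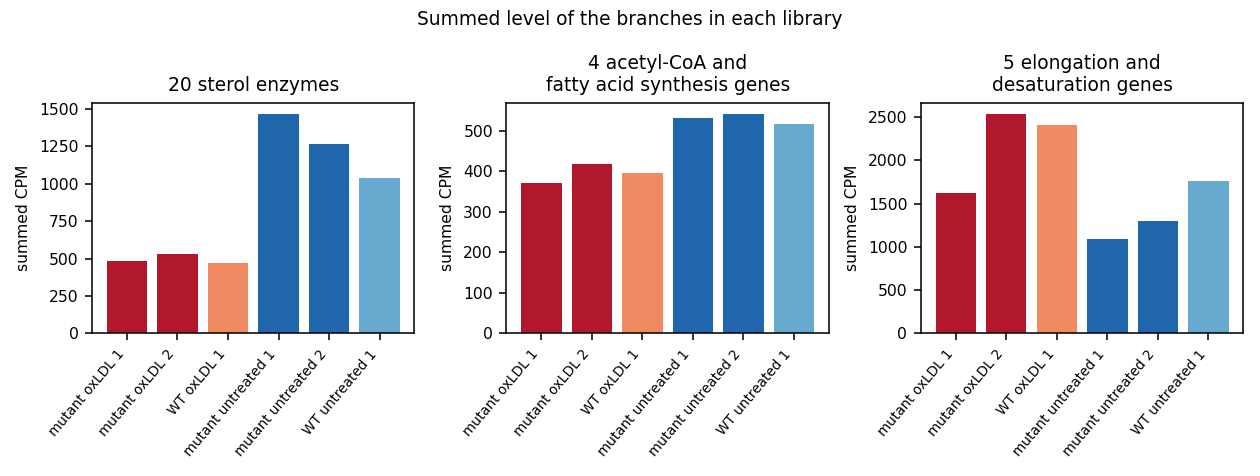
Summed CPM (y axes, from 0) of the branches in each of the 6 libraries; 1 bar is 1 library, with oxLDL libraries left of untreated ones. The bars of the 20 sterol enzymes stand between 469 and 531 CPM with oxLDL and between 1038 and 1466 CPM untreated. The elongation and desaturation bars overlap between treatments.

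Per kilobase of the longest coding transcript, the order of the genes changed with oxLDL. Scd2 was the most abundant in both states, at 337 ± 80.0 CPM per kb with oxLDL and 189 ± 58.5 CPM per kb untreated (SD, n = 3 each). Idi1 ranked 27 of 34 with oxLDL and 9 untreated, at 4.11 CPM per kb with oxLDL and 36.2 CPM per kb untreated. Cyp51 ranked 18 with oxLDL and 7 untreated, at 8.65 CPM per kb with oxLDL and 38.3 CPM per kb untreated. Ggps1 ranked 17 with oxLDL and 31 untreated, at 8.82 CPM per kb with oxLDL and 5.64 CPM per kb untreated. Fads1 and Acly stayed among the 4 most abundant, and Elovl6 was last in both states, at 0.89 CPM per kb with oxLDL and 1.52 CPM per kb untreated.

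Within the mutant, with 2 libraries a side, 24 of the 34 genes fell and 2 rose, Ggps1 and Scd2, against 35.6% of all genes tested called in either direction, 19.1% lower and 16.5% higher. The 8 that did not pass were Lss, Ebp, Scap, Insig2, Acss2, Acaca, Scd1 and Fads1. In WT there was 1 library a side and so no test; by size, from at least 5 CPM in either library, 15 of the 34 genes were at least 2-fold lower with oxLDL and 1, Acss2, at least 2-fold higher, against 19.6% of genes in either direction, 11.7% lower and 7.92% higher. The log2 fold change of Idi1 was -3.34 ± 0.13 SE in the mutant (adjusted p = 0.000168 by edgeR), set beside -2.68 in WT. Acat2 had -2.06 ± 0.13 SE in the mutant and -1.98 in WT, Cyp51 -2.25 ± 0.11 SE in the mutant and -1.90 in WT, and Stard4 -1.74 ± 0.14 SE in the mutant and -1.48 in WT. Elovl6 had -1.05 ± 0.18 SE in the mutant and -0.19 in WT, and Hsd17b7 -1.79 ± 0.12 SE in the mutant and -0.86 in WT. The difference of the responses between genotypes was tested as an interaction, and no member passed, against 0.489% of all genes tested. DESeq2 called 0 of the 34, against 221 genes called in all. An unadjusted p under 0.05 was found for 3 of the 34, against 1393 of the 12689 genes tested. Those 3 were Hsd17b7 (-0.93 ± 0.21 SE, adjusted p = 0.222 by edgeR), Idi1 (-0.64 ± 0.21 SE, adjusted p = 0.375) and Elovl6 (-0.85 ± 0.31 SE, adjusted p = 0.411), each with a larger estimated fall in the mutant. A p that misses the threshold does not show that the genotypes responded alike.

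**Figure D4:**
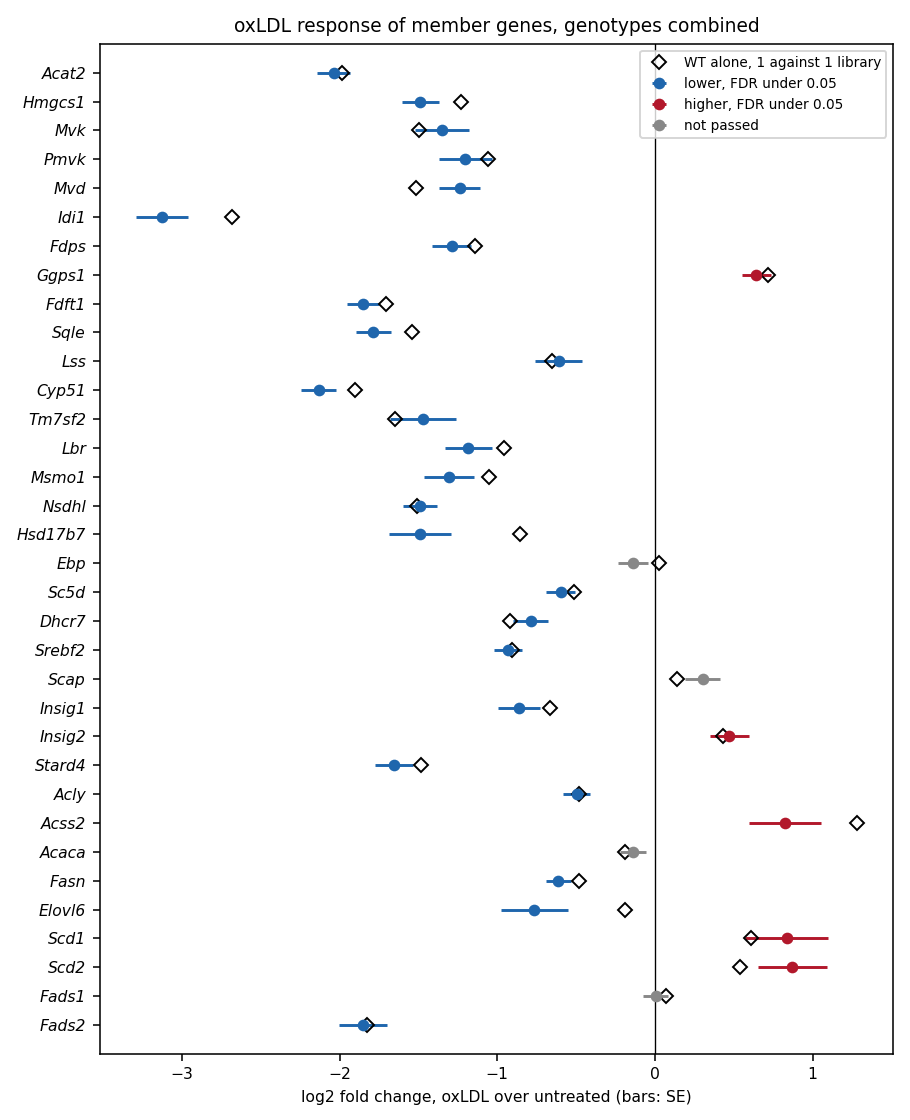
log2 fold change of oxLDL over untreated (x axis) for the 34 genes by pathway step; filled circles are the estimate over both genotypes with its SE, coloured by call, and open diamonds the WT libraries alone, 1 against 1, with no test. The diamonds of Hsd17b7, Elovl6 and Idi1 lie to the right of their circles.

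Between genotypes the differences were smaller and rested on few libraries. In untreated cells 2 of the 34 genes were higher in the mutant and none lower, against 7.06% of all genes tested called, 4.24% higher and 2.82% lower. An unadjusted p under 0.05 was found for 12 of the 34, against 3436 of the 12689 genes tested. DESeq2 called 3 of the 34 higher and 0 lower, against 1301 genes called in all. Sqle, with the untreated values given above (106 and 95.0 CPM in the mutant, 60.8 CPM in WT), was higher in the mutant by 0.72 ± 0.13 SE on the log2 scale (adjusted p = 0.0342 by edgeR). Hsd17b7, at 38.3 and 35.3 CPM in the mutant and 20.4 CPM in WT, was higher by 0.85 ± 0.15 SE (adjusted p = 0.0342). In both, the mutant libraries lay together above the single WT library, and both calls were lost without either untreated mutant library, with adjusted p = 0.114 and 0.0606 for Sqle and 0.131 and 0.0912 for Hsd17b7. Hmgcs1 (0.63 ± 0.14 SE, adjusted p = 0.0535) and Fasn (0.44 ± 0.11 SE, adjusted p = 0.062) missed the threshold. The untreated WT library lay below both untreated mutant libraries in 15 of the 20 sterol enzymes and above both in 3, and in all 34 genes these counts were 21 and 11. Over all genes tested it lay below both in 38.7% and above both in 42.4%. The median log2 difference of mutant from WT was 0.38 in the sterol enzymes, against -0.01 over all genes. The other way round were Scd1, at 47.5 and 66.3 CPM in untreated mutant cells and 116 CPM in untreated WT cells (-1.03 ± 0.39 SE, adjusted p = 0.16), and Scd2, at 767 and 941 CPM in untreated mutant cells and 1387 CPM in untreated WT cells (-0.70 ± 0.30 SE, adjusted p = 0.204). Beside these values, the untreated WT library also held the summed neutrophil markers at 39.2 CPM, against 0.706 and 1.70 CPM in untreated mutant, and the pancreas markers named above; their part in the genotype difference was not tested.

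With oxLDL no member passed, against 0.481% of all genes tested (0.299% higher, 0.181% lower), and DESeq2 called 0 of the 34, against 391 genes in all. An unadjusted p under 0.05 was found for 2 of the 34, against 1819 of the 12689 genes tested. These were Mvd (0.62 ± 0.18 SE, adjusted p = 0.216 by edgeR) and Sqle (0.37 ± 0.13 SE, adjusted p = 0.294). The WT oxLDL library lay below both mutant oxLDL libraries in 9 of the 20 sterol enzymes and above both in 4, and in 10 and 8 of all 34 genes, against 38.8% below and 37.5% above over all genes tested. Across treatments, too, edgeR called none of the 34 genes, against 4.05% of all genes tested (2.54% higher, 1.51% lower). An unadjusted p under 0.05 was found for 9 of the 34, a share similar to the 3097 of the 12689 genes tested. DESeq2 called 4 of the 34 higher in the mutant, Hmgcs1, Sqle, Lbr and Fasn, and 1 lower, Scd1, against 1513 genes called in all. Nearest to the threshold were Sqle (0.55 ± 0.12 SE, adjusted p = 0.0546), Fasn (0.35 ± 0.086 SE, adjusted p = 0.0765), Lbr (0.58 ± 0.16 SE, adjusted p = 0.0939) and Hmgcs1 (0.44 ± 0.12 SE, adjusted p = 0.0974).

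**Figure D5:**
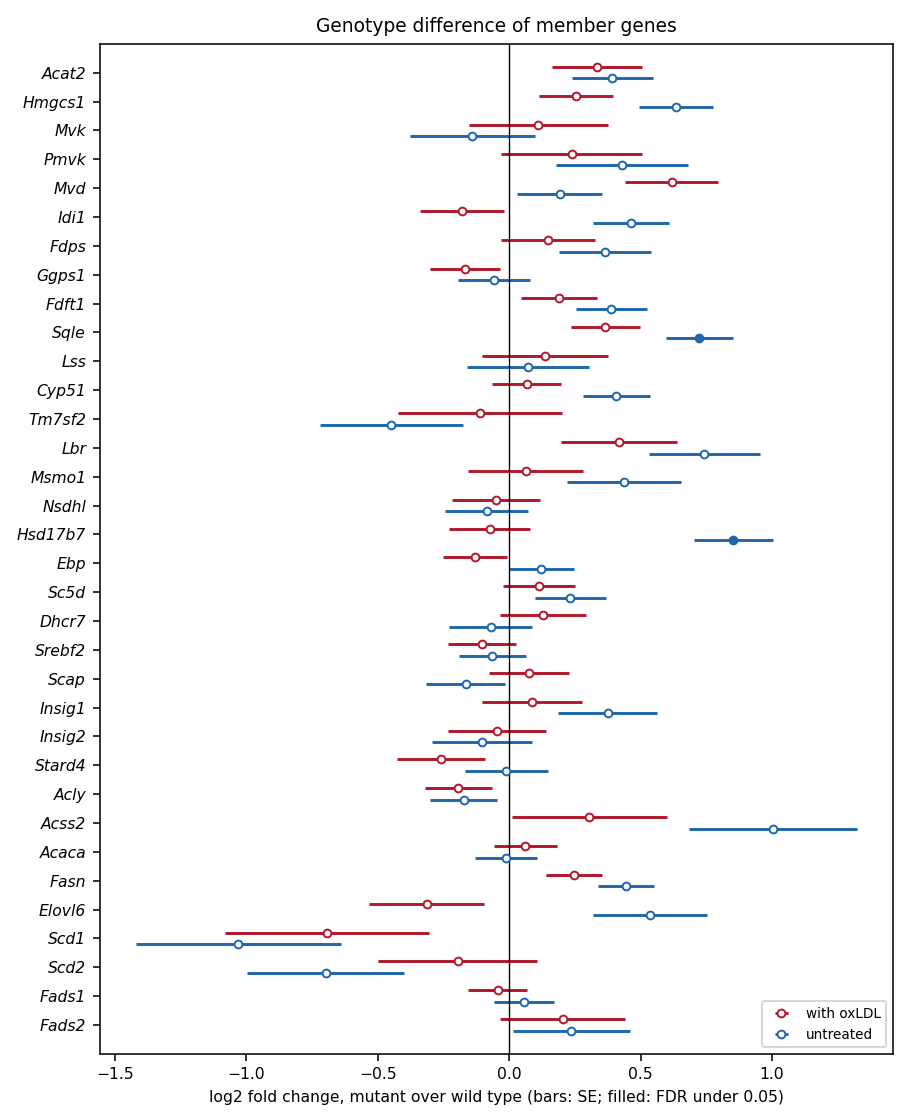
log2 fold change of mutant over WT (x axis, bars SE) for the 34 genes, with oxLDL and untreated; filled points passed an adjusted p of 0.05. The filled points are Sqle and Hsd17b7 in untreated cells, and the points of Scd1 lie left of 0 in both states.

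Other genes of the pathway were read from 5 further lists in the comparison of oxLDL across genotypes, where 40.5% of all genes tested were called, 19.1% higher and 21.4% lower, with a median log2 fold change of 0.01. Of 10 genes for SREBP processing and turnover, 2 rose, 1 fell and 7 did not pass (median 0.12), a share that so few genes cannot tell from that background. Srebf1, which encodes SREBP-1 and is a known LXR target, had 73.3 and 101 CPM in oxLDL-treated mutant cells and 87.8 CPM in oxLDL-treated WT cells, against 51.6 and 57.8 CPM in untreated mutant cells and 73.5 CPM in untreated WT cells (0.53 ± 0.15 SE, adjusted p = 0.0338 by edgeR), a call lost without mutant untreated 1 (0.118) or 2 (0.114). It thus moved opposite to Srebf2, and the CPM ratio of Srebf2 to Srebf1 was 0.986 and 0.837 in mutant oxLDL and 0.960 in WT oxLDL, against 2.93 and 2.61 in untreated mutant and 2.15 in untreated WT. Mbtps2, the site-2 protease that frees SREBPs from the membrane, rose (0.78 ± 0.087 SE, adjusted p = 0.00101; 27.5% of its stretches shared with other genes). Rnf145, an LXR-induced ubiquitin ligase of the endoplasmic reticulum, had 27.2 and 27.4 CPM in oxLDL-treated mutant cells and 29.7 CPM in oxLDL-treated WT cells, against 68.6 and 77.5 CPM in untreated mutant cells and 91.2 CPM in untreated WT cells, a 2.80-fold lower level with oxLDL (-1.49 ± 0.096 SE, adjusted p = 0.00016). In the isoprenoid branch 2 of 10 rose, 2 fell and 6 did not pass (median 0.13), a share near the background, and the values that follow describe single genes. Nus1, a subunit of the dolichol-making prenyltransferase, was 1.60-fold higher with oxLDL (0.68 ± 0.091 SE, adjusted p = 0.00197) and Icmt, which methylates prenylated proteins, 1.45-fold higher (0.54 ± 0.094 SE, adjusted p = 0.00505). Pggt1b, the beta subunit of an enzyme that adds geranylgeranyl groups to proteins, fell (-0.96 ± 0.15 SE, adjusted p = 0.00386), as did Pdss1, which makes the tail of coenzyme Q (-1.24 ± 0.31 SE, adjusted p = 0.0203), whose call was lost without WT oxLDL (0.0534), mutant untreated 2 (0.0817) or WT untreated (0.0568).

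Of 17 genes for other steps of sterol and fatty acid synthesis and activation, 4 rose, 3 fell and 10 did not pass (median -0.04), again a share near the 40.5% of all genes tested. Aacs, acetoacetyl-CoA synthetase, fell (-0.77 ± 0.11 SE, adjusted p = 0.00241 by edgeR), and Ptplb, a hydratase of fatty acid elongation, fell too (-0.53 ± 0.11 SE, adjusted p = 0.0103), though not without mutant untreated 2 (0.0512). Me1, the NADPH-making malic enzyme, had 60.6 and 67.9 CPM in oxLDL-treated mutant cells and 48.1 CPM in oxLDL-treated WT cells. In untreated cells it read 26.2 and 29.2 CPM in the mutant and 17.7 CPM in WT. It was 2.44-fold higher with oxLDL (1.29 ± 0.10 SE, adjusted p = 0.000321; 16.4% of its stretches shared), and Lpin1, a phosphatidate phosphatase, was 1.89-fold higher (0.92 ± 0.14 SE, adjusted p = 0.00302). Mid1ip1, an activator of acetyl-CoA carboxylase (18.8% of its stretches antisense to other genes), and Elovl5, an elongase of polyunsaturated fatty acids, also rose, by 0.55 ± 0.10 SE and 0.45 ± 0.073 SE.

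Of 8 tested genes of the sterol storage and oxysterol list, against 19.1% of all genes tested called higher and 21.4% lower, 5 rose, Soat1, Nceh1, Lipa, Npc1 and Hsd3b7, and 2 fell, Ch25h and Cyp27a1 (median log2 fold change 1.05, against 0.01 over all genes). Soat1, which makes cholesteryl esters, had 839 and 766 CPM in oxLDL-treated mutant cells and 764 CPM in oxLDL-treated WT cells. The untreated libraries read 412 and 302 CPM in the mutant and 276 CPM in WT. All oxLDL libraries lay far above the untreated ones, a 2.41-fold higher level (1.27 ± 0.15 SE, adjusted p = 0.00114 by edgeR). Npc1, the lysosomal cholesterol exporter, was 2.39-fold higher with oxLDL (1.26 ± 0.12 SE, adjusted p = 0.000526), and Nceh1, a cholesteryl ester hydrolase, 2.93-fold higher (1.55 ± 0.19 SE, adjusted p = 0.00134). Lipa, the lysosomal acid lipase, rose by 0.95 ± 0.16 SE, and Hsd3b7 by 1.16 ± 0.13 SE, with 46.1% of the stretches of Hsd3b7 shared with other genes. Ch25h, the enzyme that makes 25-hydroxycholesterol, an inhibitor of SREBP release, had 0.162 and 0.0991 CPM in oxLDL-treated mutant cells and 0 CPM in oxLDL-treated WT cells, against 9.71 and 28.2 CPM in untreated mutant cells and 26.7 CPM in untreated WT cells (-7.64 ± 0.70 SE, adjusted p = 0.000479); the oxLDL levels are a handful of reads, so the size of this fall is uncertain. Cyp27a1, the sterol 27-hydroxylase, fell by 0.80 ± 0.16 SE. Of the 6 LXR-linked genes, 4 rose, Mylip, Abcg1, Lpcat3 and Nr1h2, 1 fell, Nr1h3, which encodes LXR alpha, and 1 did not pass (median 0.34), against the same 19.1% higher and 21.4% lower. Mylip, the LXR-induced ligase that degrades lipoprotein receptors, had 289 and 284 CPM in oxLDL-treated mutant cells and 410 CPM in oxLDL-treated WT cells, against 76.4 and 67.4 CPM in untreated mutant cells and 99.2 CPM in untreated WT cells (2.01 ± 0.086 SE, adjusted p = 7.61e-05). Abcg1, a cholesterol exporter, rose by 0.92 ± 0.13 SE (adjusted p = 0.00214) and Nr1h3 fell by 1.08 ± 0.15 SE (adjusted p = 0.00204). The rises of Lpcat3, which remodels phospholipids, and Nr1h2, which encodes LXR beta, were 0.36 ± 0.099 SE (adjusted p = 0.0271) and 0.31 ± 0.092 SE (adjusted p = 0.0341), and were lost on leaving out 4 libraries, both mutant oxLDL and both untreated mutant ones, and for Nr1h2 also without WT oxLDL (adjusted p between 0.0516 and 0.116 over these settings).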

How the data were processed

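Polyadenylated RNA of 6 macrophage samples (250 ng each) was sequenced as 150-base paired ends with a stranded kit, per the labels' protocols. The submitters' processing notes name Bowtie2 2.1.0 as aligner, RSEM 1.2.15 for counting and edgeR, and a human build, although the gene names are mouse ones, so the true build is not given. Per these notes the authors deposited expected counts from RSEM and a TMM-normalised signal from edgeR. Whole reads recovered from that signal (relative tolerance 1e-06) equal the rounded counts for 99.89% of genes or more. How RSEM divided reads between near-identical genes could shift single values, so shares of 75-base stretches found in other genes were computed from mouse transcripts.

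Expected counts were rounded, and 12689 of 17143 genes with any count passed filterByExpr. They were tested with the quasi-likelihood test of edgeR 4.0.16 under R 4.3.3 (TMM, Benjamini-Hochberg adjustment, threshold 0.05). Effects across genotypes and across treatments came from an additive model, the other contrasts from a model of 4 group means. Comparisons share libraries and are not independent. Each SE is the log2 fold change over the root of F, and is approximate. WT alone was described by size, with a prior count of 2. Alternatives were DESeq2 1.42.0, its size factors, no filter, a replicate block, leaving out each library and the recovered reads. The procedure was also run on simulated counts with the same spread for every gene and independent libraries. That run does not show how the procedure performs at the spread of these libraries. Depth ran from 11281692 to 24273551 counts, where 3 counts in 1 library equal 0.122 to 0.265 CPM (counting error only). All 34 genes may be named, with Fermt3, up to 4 genes of smallest p from each other list, and the members of any count of 5 or fewer. The values of 1 gene from the other lists are not reported here. The genes and lists were chosen with earlier results of these data known. Of 101 genes in the 5 pathway and 7 marker lists, 100 were found, 3 of them under an older symbol. Promoter windows are from RefSeq.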

Additional observations from a re-analysis of the deposited data

How the results depend on the processing

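Of the changes with oxLDL across genotypes, those of Lss, Insig2, Acss2, Elovl6, Scd1 and Scd2 lost their call when some single library was left out; the other calls among the 34 genes kept their direction and their side of the threshold under DESeq2 size factors, the DESeq2 Wald test, no filter on low counts, a replicate block, the recovered whole reads (added after the data were seen) and leaving out each library. For genotype across treatments, among the 9 members with an unadjusted p under 0.05, 13 values that had missed the threshold passed under another setting; members newly called in other comparisons are counted below. Fads1, not called, reversed to -0.0133 with DESeq2 size factors and with DESeq2, and ranged from -0.0357 to 0.0512 on leaving out 1 library, negative without mutant oxLDL 2, WT oxLDL or WT untreated; the cause was not tested.

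Counts moved as follows, with the edgeR count first. For oxLDL in the mutant, 2 genes of the 34 were higher, against 6 with no filter and 5 with the block. For genotype across treatments, 514 genes were called, against 1513 with DESeq2 and 1387 with no filter; members higher were 0, 4 and 3, members lower 0, 1 and 1, and 1 lower with the block. For genotype in untreated cells, 896 genes were called, against 2435 with no filter and 1870 with the block; members higher were 2, 7 and 4, and members lower 0, 2 and 2. For genotype with oxLDL, 61 genes were called, against 391 with DESeq2, 974 with no filter and 462 with the block, where 1 member was lower. For the interaction, 62 genes were called, against 221, 546 and 162, and no member. In WT, 1926 genes and 1 member higher passed by size, against 2946 genes and 2 members higher when edgeR lent WT the spread of the mutant pairs. The causes were not tested.

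Leaving out 1 library at a time gave, for oxLDL across genotypes, 3480 to 4529 genes called, 1 to 4 members higher and 23 to 24 lower, and for oxLDL in the mutant 2626 to 4057 genes, 0 to 5 higher and 22 to 25 lower. It gave 8 to 877 genes for genotype across treatments, with 0 to 2 members higher and 0 to 1 lower, 80 to 1822 for genotype untreated, with 0 to 5 higher and 0 to 1 lower, 5 to 473 for genotype with oxLDL, with 0 higher and 0 to 1 lower, and 19 to 246 for the interaction, with no member. The fewest genotype calls came without an untreated mutant library (8 without the second across treatments; 80 and 5 without the first in untreated and oxLDL cells). Without a WT library the estimate across genotypes rests on the mutant alone. For oxLDL in the mutant, genotype untreated, genotype with oxLDL and the interaction, these ranges cover leaving out mutant libraries only.

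The labels number the oxLDL and untreated libraries alike but do not say whether libraries of the same number share an animal. The main fits used no pairing. Over 9561 genes the difference of replicate 1 minus 2 in mutant oxLDL had r = 0.33 with that in mutant untreated, and the replicate block gave 4765 genes for oxLDL across genotypes, with 5 members higher and 24 lower, losing Elovl6 (adjusted p = 0.0508) and, outside the 34 genes, Nr1h2 (0.0575). Scaling by DESeq2 size factors moved the median log2 fold change of all genes by less than 0.1 in every comparison. Low genes such as Tm7sf2 and Mvk rest on the fewest reads, and with single WT libraries the genotype comparisons are the least precise.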
